A study of Mus musculus with 13 samples.

Results

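The Id, Hes, Hey and Notch genes followed here were 10 genes listed by symbol: the Id genes Id1, Id2 and Id3, the repressors Hes1, Hes6, Hey1 and Heyl, the receptors Notch1 and Notch3, and the ligand Jag1. Each symbol was matched to its Ensembl gene in the count tables, which hold 16382 genes in all, and the 10 genes were chosen because earlier results on the same libraries showed lower Id3 and Hes1 with PEA. For that reason the difference between PEA and CON is given for them as a description, with no p-value, and nothing is read from how many of them passed the threshold. RNA-seq was carried out on C2C12 myotubes, the multinucleated muscle fibres that a mouse myoblast cell line forms in low-serum medium. Palmitoylethanolamide, a fatty acid amide (PEA, 10 μM), or DMSO as the vehicle (CON) was added on day 8 of differentiation, and the cells were harvested after 24 h. There were 6 CON and 6 PEA libraries, from duplicate wells in 3 repeats of the experiment. The labels do not say which libraries came from the same repeat, so the spread between libraries is partly technical. The fits took the libraries as independent, so the errors and adjusted p-values given below may be too small and the calls too many. All cultures were of 1 cell line and contained myoblasts that had not fused beside the myotubes.

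Notch receptors are cut after a ligand such as Jag1 on a neighbouring cell binds them, and the released intracellular domain joins the DNA-binding protein RBPJ to switch on target genes. Hes1, Hey1 and Heyl are among the classic targets and encode basic helix-loop-helix (bHLH) repressors, while Hes6 encodes a relative that antagonises Hes1 and accompanies differentiation. Id proteins lack a DNA-binding region and hold E proteins, the dimerisation partners of MyoD and myogenin, away from DNA. In muscle, Notch signalling and Id proteins are known for holding myoblasts and satellite cells back from differentiation, and the Id genes are standard targets of bone morphogenetic protein (BMP) signalling through SMAD proteins.

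The promoters of 5 of these genes are shown, since Id3 and Hes1 were the genes the choice rested on, Id1 and Id2 are the relatives of Id3, and Notch3 is the receptor whose groups did not overlap. Each sequence is the 250 bases before the start of the canonical GENCODE transcript, read 5′ to 3′ on the gene's strand from GRCm39, the build to which the reads were aligned. In Hes1 the capitals mark TGGGAA, the core of the RBPJ motif. In the other sequences the capitals mark the N-box, CACNAG or on the opposite strand CTNGTG, a motif bound by HES proteins.
Hes1, chr16:29883877-29884126, plus strand: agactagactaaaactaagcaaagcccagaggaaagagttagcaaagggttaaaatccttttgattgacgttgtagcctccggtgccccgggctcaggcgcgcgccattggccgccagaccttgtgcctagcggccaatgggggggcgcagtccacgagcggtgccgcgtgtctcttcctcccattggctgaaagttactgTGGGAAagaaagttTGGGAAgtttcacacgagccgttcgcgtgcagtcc
Id1, chr2:152577915-152578164, plus strand: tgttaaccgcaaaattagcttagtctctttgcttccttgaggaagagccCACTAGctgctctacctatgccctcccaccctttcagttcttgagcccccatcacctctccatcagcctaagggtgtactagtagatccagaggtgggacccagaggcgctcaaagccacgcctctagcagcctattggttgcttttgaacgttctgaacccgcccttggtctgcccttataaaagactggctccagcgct
Id2, chr12:25147283-25147532, minus strand: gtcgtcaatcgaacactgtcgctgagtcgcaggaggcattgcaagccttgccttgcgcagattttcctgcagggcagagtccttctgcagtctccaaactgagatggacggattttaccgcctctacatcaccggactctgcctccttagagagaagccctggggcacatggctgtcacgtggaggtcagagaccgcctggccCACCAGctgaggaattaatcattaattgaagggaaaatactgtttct
Id3, chr4:135870558-135870807, plus strand: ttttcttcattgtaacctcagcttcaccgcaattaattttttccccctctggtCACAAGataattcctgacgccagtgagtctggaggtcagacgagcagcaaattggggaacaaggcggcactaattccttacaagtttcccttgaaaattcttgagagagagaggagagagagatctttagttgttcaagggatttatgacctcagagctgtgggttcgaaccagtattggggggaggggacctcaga
Notch3, chr17:32385894-32386143, minus strand: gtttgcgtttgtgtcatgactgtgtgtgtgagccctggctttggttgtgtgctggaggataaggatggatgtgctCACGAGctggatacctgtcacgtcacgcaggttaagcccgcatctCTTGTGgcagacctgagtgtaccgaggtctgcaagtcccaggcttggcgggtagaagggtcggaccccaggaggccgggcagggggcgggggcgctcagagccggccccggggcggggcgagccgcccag

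The RBPJ core TGGGAA, or TTCCCA on the opposite strand, occurred 2 times in the Hes1 window, at 49 to 44 and at 35 to 30 bases before the start. Of the 14390 protein-coding genes whose windows were searched, 22.0% held this core at least once. Among the 10 genes it was found in 2, Hes1 and Hey1, and no match was found in the windows of Notch1, Notch3, Jag1, Heyl, Hes6 or the Id genes. The N-box was found in 8 of the 10 windows, against 36.2% of all windows. It was found 3 times in Hes1 and 2 times in Notch3, and was not found in Heyl and Jag1. The E-box CANNTG, which bHLH activators bind, was found in 2 of the 10, Id2 and Hes6, against 60.9% of all windows. The HES and HEY class C site CACGNG or CNCGTG was found in Hes1, Hey1, Id2 and Notch3 and in 29.4% of all windows. The letters CACGAG count as both an N-box and a class C site, and CACGTG as both an E-box and a class C site. The GC-rich SMAD motif GGCGCC was found in Hey1 alone of the 10 and in 11.9% of all windows. The cAMP response motif TGACG or CGTCA was found in Hes1, Id2, Id3 and Notch3 and in 22.0% of all windows. These are letter matches in 1 window per gene, and no binding was measured.

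In GRCm39 the genes lie at chr2:152566218-152579544 (Id1), chr12:25143798-25147282 (Id2), chr4:135870808-135873066 (Id3), chr16:29882134-29886643 (Hes1), chr1:91339204-91342103 (Hes6), chr3:8726956-8732385 (Hey1), chr4:123127349-123143682 (Heyl), chr2:26347915-26406675 (Notch1), chr17:32339794-32385893 (Notch3) and chr2:136923373-136958693 (Jag1). All but Heyl share exon bases with an annotated long non-coding RNA on the opposite strand, and the sources used here do not say whether reads were counted by strand, so reads of the 2 strands may be joined in 9 of the 10 values. Of those opposite genes, 0610009E02Rik at Notch1 is the only one with values in the tables.

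Libraries held 12354845 to 50397444 estimated counts, with a median of 18420606, and CON replicate 1 was the deepest at 2.25 times the next. Every one of the 10 genes was read in all libraries, from at least 34 estimated counts for Hey1 to at most 6205 for Hes6. Markers of myotubes were high in all cultures, with 16 genes such as Acta1 and Des summing to between 153310 and 230802 normalized counts in CON and between 158651 and 178928 in PEA. None of the 16 was called higher in PEA and 6 were called lower. Markers of cycling cells summed to between 10973 and 15436 in CON and between 16923 and 19578 in PEA, without overlap, and 10 of the 12 were called higher. Of 10 tested markers of unfused myoblasts, Sdc3 and Cd34 were called higher and Cdh15 lower, and the sums overlapped, at 29993 to 36035 in CON and 31547 to 34760 in PEA. Endothelial markers summed to at most 28.5 and immune markers to at most 145 normalized counts in any library, and the pan-leukocyte gene Ptprc averaged 0.319 in CON. Cd68, the only immune marker tested, averaged 100 in CON and 96.4 in PEA and was not called. Osteoblast markers summed to 33735 to 37798 in CON and 32952 to 37406 in PEA, nearly all of it Spp1. Runx2 averaged 785 in CON and 872 in PEA, while Alpl averaged 2.58 and Sp7 0.699 in CON. Of the 2 tested, Runx2 and Spp1, 0 were called. CON replicate 3 had the lowest myotube sum and CON replicate 2 had the highest of the CON libraries in both the myotube and the cycling sum, so that results resting on them are given with and without them.

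The levels of the 10 genes covered a wide range. Values are given as normalized counts, which are estimated counts divided by 1 factor per library, and genes are set against each other only after division by the length of the canonical transcript in kilobases (kb). On this scale Hes6 had the highest level in CON, at 1813 ± 150 normalized counts per kb (SD, n = 6), followed by Id3 at 875 ± 139. Id1 at 516 ± 70.9 and Hes1 at 436 ± 47.7 came next, and their ranges over the CON libraries overlapped, so that their order is not resolved. Id2 at 225 ± 50.4 lay below both without overlap. Of the receptors, Notch3 at 112 ± 16.2 stood above Notch1 at 51.3 ± 8.75, again without overlap. Jag1 at 20.5 ± 5.34, Heyl at 17.5 ± 2.78 and Hey1 at 13.4 ± 3.18 were the lowest, and the ranges of neighbours among them overlapped. In PEA the order was the same but for Hey1 at 14.2 ± 3.88 and Heyl at 13.5 ± 3.07, which changed places. When all annotated exons were used as the length, the order in CON did not change, and in PEA Notch3 at 121 ± 8.89 and Id2 at 121 ± 19.4 were level on that scale, and Heyl and Hey1 did not change places (11.6 ± 2.64 and 11.5 ± 3.15).

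**Figure D1:**
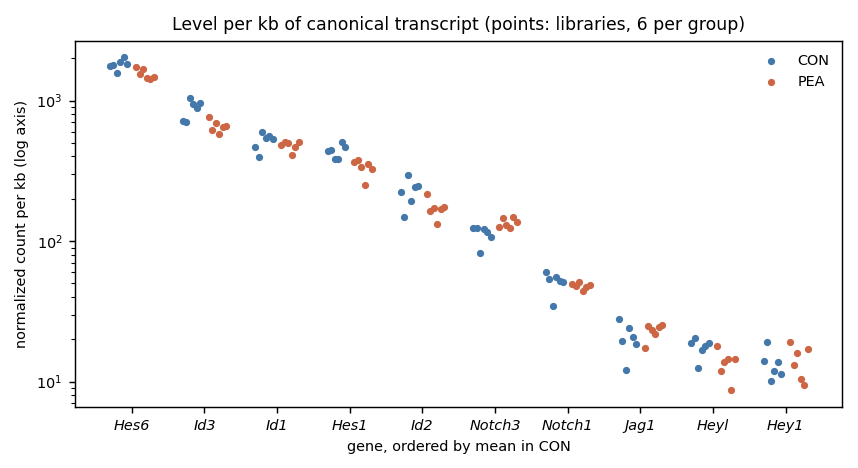
Normalized count per kb of canonical transcript for the 10 genes on a log axis, ordered by their mean in CON, with 1 point for each of the 6 CON and 6 PEA libraries. Hes6 and Id3 lie at the top, Id1 and Hes1 overlap, and Jag1, Heyl and Hey1 overlap at the bottom.

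The Id genes were lower on average in PEA than in CON, by unequal amounts. Id3 in CON ran from 896 to 1331 normalized counts with a median of 1170, and in PEA from 738 to 982 with a median of 834. All 6 PEA libraries lay below the CON median and 5 lay below the lowest CON library, while PEA replicate 1, the highest, overlapped CON replicates 1 and 2. The means were 1118 ± 178 in CON and 842 ± 83.9 in PEA (SD, n = 6 each), a log2 fold change of -0.40 (SE 0.10). In bulk RNA, fewer cells of a type and less RNA per cell cannot be told apart, for this gene and for those that follow. Id2 in CON ran from 365 to 731 with a median of 571, and in PEA from 324 to 535 with a median of 422. Its groups overlapped, since CON replicate 2, at 365, was lower than 5 of the PEA libraries and CON replicate 4, at 478, lower than PEA replicate 1, while the other 4 CON libraries lay above every PEA library. The log2 fold change of Id2 was -0.39 (SE 0.14), about as large as that of Id3 but with a larger error. Id1 in CON ran from 458 to 684 with a median of 621, and in PEA from 472 to 586 with a median of 568. All PEA values of Id1 lay inside the CON range, and its log2 fold change was -0.10 (SE 0.09). Leaving out 1 library moved it to between -0.17, without CON replicate 2, and -0.06, without CON replicate 3 or PEA replicate 4.

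Of the bHLH repressors, Hes1 and Hes6 were lower in PEA. Hes1 in CON ran from 583 to 775 normalized counts with a median of 672, and in PEA from 386 to 573 with a median of 528. The groups did not overlap: the highest PEA library, replicate 2, lay below the lowest CON library, replicate 4. The means were 667 ± 72.9 and 512 ± 68.0, with a log2 fold change of -0.38 (SE 0.09). Hes6, the antagonist of Hes1 with the highest level of all 10, ran from 2128 to 2741 in CON with a median of 2449, and from 1911 to 2322 in PEA with a median of 2025. PEA replicates 1 and 3 reached into the CON range above CON replicate 3, and the other 4 lay below it. The log2 fold change of Hes6 was -0.23 (SE 0.06), smaller than that of Hes1 and with a smaller error.

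The HEY repressors were read at low levels and their values scattered widely. Heyl in CON ran from 56.6 to 93.4 with a median of 83.6, and in PEA from 39.8 to 81.9 with a median of 64.1, a log2 fold change of -0.37 (SE 0.18). Although 6 of 6 PEA libraries lay below the CON median, only 2 lay below the lowest CON library. Hey1 in CON ran from 39.1 to 74.1 with a median of 49.8, and in PEA from 36.7 to 74.6 with a median of 56.7. Its log2 fold change was 0.09 (SE 0.21), and 4 of 6 PEA libraries lay above the CON median. A change of the size seen in Hes1 would be less than 2 SE for Hey1, so neither a rise nor a fall of that size was detectable here.

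The receptors and the ligand did not share the direction of Id3 and Hes1 as a group. Notch3 in CON ran from 662 to 999 normalized counts with a median of 961, and in PEA from 1002 to 1202 with a median of 1078. The groups did not overlap, but the gap was narrow, since CON replicates 1, 2 and 4 lay just below the lowest PEA library, replicate 4. The means were 906 ± 131 and 1093 ± 80.1, with a log2 fold change of 0.27 (SE 0.09). CON replicate 3 was far below the other controls at 662, and without it the log2 fold change was 0.20. Notch1 in CON ran from 330 to 574 with a median of 501, and in PEA from 418 to 482 with a median of 459, a log2 fold change of -0.10 (SE 0.10). The lowest value, 330, was that of CON replicate 3, and without it the log2 fold change was -0.19. Without CON replicate 1, the highest of the controls, it was -0.04. The PEA libraries of Notch1 lay within the CON range and close together, with an SD of 22.0 against 83.0 in CON. Jag1 in CON ran from 69.9 to 161 with a median of 116, and in PEA from 99.8 to 145 with a median of 137, a log2 fold change of 0.15 (SE 0.17). Its lowest value in CON was again in replicate 3, and its log2 fold change was 0.03 without that library, 0.28 without CON replicate 1, the highest, and -0.01 with CON replicates 2 and 3 left out.

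**Figure D2:**
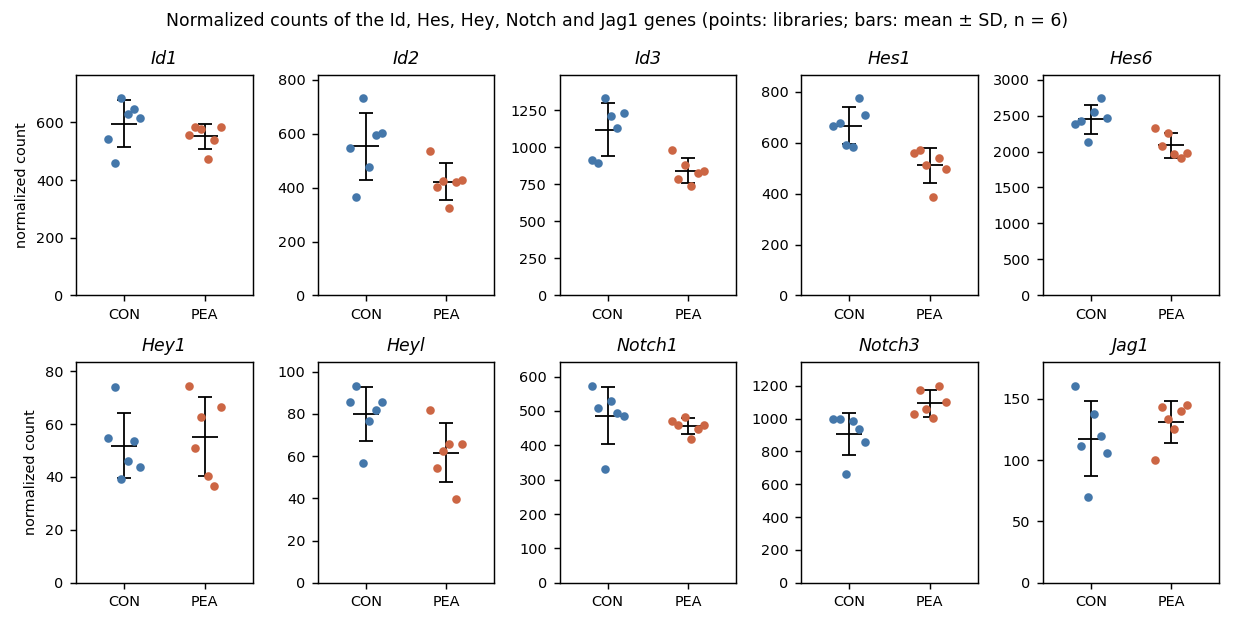
Normalized counts of the 10 genes in the 6 CON and 6 PEA libraries, in replicate order from left to right, with bars at the mean ± SD and each axis starting at 0. Hes1 and Notch3 show no overlap between the groups, Hes1 lower and Notch3 higher in PEA, and the third CON point is the lowest CON value in Notch1, Notch3 and Jag1.

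All 10 genes passed the filter on low counts. By edgeR's quasi-likelihood test with Benjamini-Hochberg adjustment over all 13142 genes tested and a threshold of 0.05, 3 of the 10 were called lower in PEA, which were Id3, Hes1 and Hes6, and 0 were called higher. Over all genes tested, 4.74% were called lower and 6.31% higher, and since the genes were picked with this contrast known, no more is read from their count. The median log2 fold change of the 10 was -0.17, against 0.01 over all genes tested. It includes Id3 and Hes1, on which the choice rested, so no shift of the group is read from it. Hes1 and Notch3 were the 2 of 10 whose groups did not overlap, where 4.34% of all genes tested did not. Of the genes called, Hes6 was the nearest to the threshold, and Notch3 lay just outside it. Id3 and Hes1, which were chosen for this difference in the same libraries, were called in all 8 alternative analyses and in all 12 fits that left out 1 library, which describes the settings and is no independent support. Hes6 was called in all 8 alternatives and in 6 of the 12 fits, losing its call without CON replicates 5 or 6 or PEA replicates 2, 4, 5 or 6, with a log2 fold change between -0.23 and -0.20 in those fits. Notch3 was called higher in 6 of the 8 alternatives and in the fits without CON replicates 1, 2 or 4. Id2 was called lower in 2 of the 8 alternatives and in the fits without CON replicate 2, at -0.48, and without PEA replicate 1, at -0.47. With CON replicates 2 and 3 left out together, 4 of the 10 were called lower, at -0.40 for Id3, -0.41 for Hes1, -0.28 for Hes6 and -0.40 for Id2, and Notch3 was called higher at 0.21. The myotube markers called lower and the cycling markers called higher moved with this contrast, and their part in these differences was not tested.

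**Figure D3:**
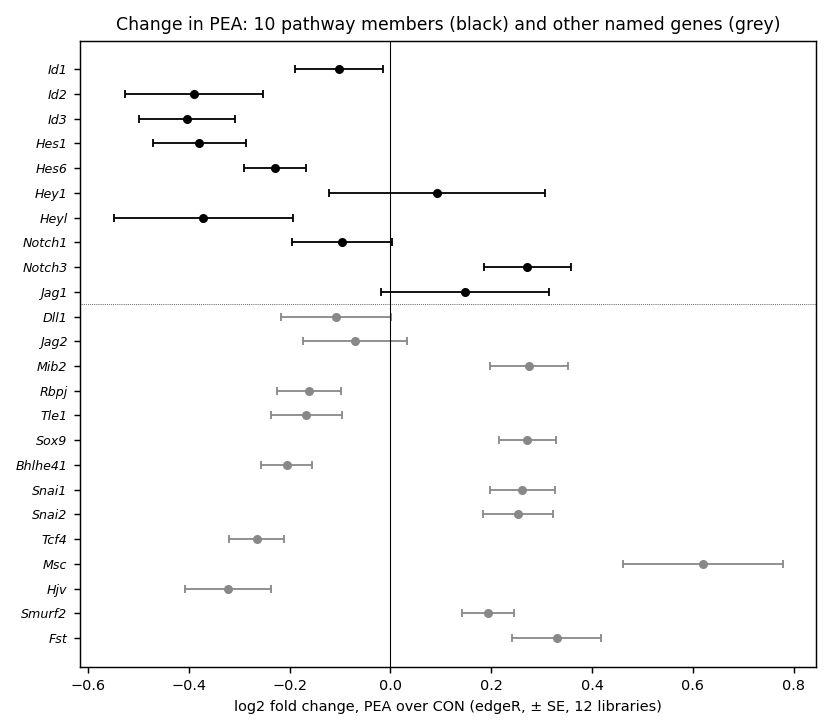
Log2 fold change of PEA over CON, with bars of ± 1 SE from edgeR over 12 libraries, for the 10 genes in black and for the other named pathway genes in grey. Id2, Id3, Hes1 and Heyl lie between -0.40 and -0.37, Notch3 lies at 0.27, and of the 10 genes the bars of Hey1, Notch1 and Jag1 cross 0.

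Libraries of the same treatment differed from one another, and some of these genes differed together. Each gene's log2 CPM (counts scaled to the library total) was set against the mean of its own group, and the 12 deviations were compared between genes. Those of Id1, Id2 and Id3 ran together, with Pearson's r of 0.78 to 0.80 over the 3 pairs and Spearman's rho of 0.49 to 0.74. Leaving out the 2 libraries farthest from the median gave r of 0.32 to 0.66, and leaving out CON replicate 3 gave 0.71 to 0.75. CON replicate 2 was the lowest of the 12 in each Id gene, with Id2 0.57 below its group mean on the log2 scale, and CON replicate 3 was the highest in each, with Id2 0.43 above. Notch1, Notch3 and Jag1 formed another such group, with r of 0.82 to 0.86 and rho of 0.48 to 0.71. These values rested largely on CON replicate 3, in which Jag1 lay 0.69, Notch1 0.54 and Notch3 0.44 below the group mean. Without it r was 0.40 to 0.63, and without the 2 farthest libraries 0.22 to 0.70. The deviations of the Id genes and of the Notch receptors and Jag1 went in opposite directions, with r of -0.61 to -0.25 over the 9 pairs, but without CON replicate 3 they ranged from -0.44 to 0.26.

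Among the repressors, Hes6, Hey1 and Heyl had r of 0.56 to 0.76 with each other and rho of 0.27 to 0.68, the lowest rho being that of Hes6 with Heyl. Without CON replicate 3 r was 0.45 to 0.73. Over all 12 libraries the highest r of Hes1 with another of the 10 genes was 0.49, with Hes6, and with Id2 it was 0.32. Without CON replicate 3 these were 0.40 and 0.59, so that which gene Hes1 followed most closely depended on the libraries used. Without the 2 libraries farthest from the median of Hes1, CON replicate 4 and PEA replicate 4, r with Hes6 was 0.70. Without the 2 farthest from the median of Id2, CON replicates 2 and 3, r with Id2 was 0.81. These last 2 values left out different libraries and are not set against each other. With the receptors, Hes1 had r of 0.36 (rho 0.06) for Notch1 and 0.39 (rho 0.23) for Notch3, and r was 0.21 and 0.26 without CON replicate 3, and 0.54 and 0.58 without the 2 farthest libraries, CON replicate 4 and PEA replicate 4. With Id3, the other gene on which the choice rested, it had r of 0.08 and rho of 0.01. Leaving out 1 library moved this r to between -0.26, without PEA replicate 4, and 0.28, without CON replicate 3, so that neither its size nor its sign is settled by these libraries. For scale, the median absolute r with all other genes tested was 0.33 for Id3 and 0.25 for Hes1. All these values are descriptions over 12 libraries, which came from duplicate wells in 3 repeats, and the genes of a pair were read in the same libraries at the same depth.

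**Figure D4:**
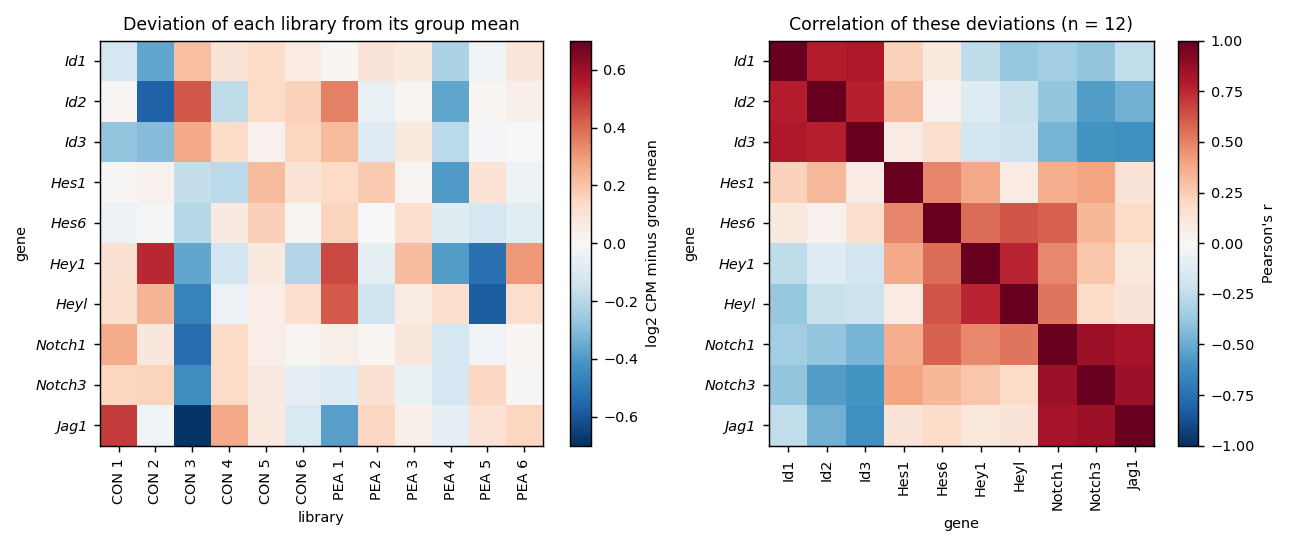
Left, the deviation of each library from its group mean in log2 CPM for the 10 genes. Right, Pearson's r between these deviations over the 12 libraries. The Id genes and the group of Notch1, Notch3 and Jag1 appear as blocks of high r, and CON 3 is high in the former and low in the latter.

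By the same measure, the genes most like Id3 of all tested were Trim28, a corepressor of zinc finger proteins, at r = 0.93, Gnai3, an inhibitory G protein subunit, at 0.92, the nucleosome-binding Hmgn1 at 0.91, Gm57504 at 0.91 and Smim30 at 0.90. Leaving out any 1 library kept Trim28 at 0.91 to 0.96. The log2 fold change of these genes in PEA ran from -0.17 for Gnai3 to -0.03 for Trim28, smaller in size than the -0.40 of Id3. The genes most like Hes1 were Depp1 at 0.89, the endocytic adaptor Hip1 at 0.89, the serum response factor coactivator Mrtfa at 0.89, the small GTPase Rhob at 0.88 and Arhgef40 at 0.88. Leaving out 1 library took Rhob to 0.75 at the lowest. Of these, Depp1 had a log2 fold change of -0.46 (SE 0.11), Hip1 of -0.16 (SE 0.07), Rhob of -0.14 (SE 0.05), Mrtfa of 0.02 (SE 0.04) and Arhgef40 of 0.05 (SE 0.05). Of all other genes tested, 2.26% had r of at least 0.75 with Id3 and 0.594% with Hes1.

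The rest of the pathway was followed in 6 lists of genes chosen by function, 110 in all, of which 89 were tested. Of these, 7 were called higher and 3 lower in PEA, 7.87% and 3.37% against 6.31% and 4.74% of all genes tested, and their median log2 fold change was -0.01. Of the other ligands and receptors, 0 of 4 tested were called. Dll1, a ligand, gave 197 ± 21.6 normalized counts in CON and 183 ± 24.8 in PEA, and Jag2, a relative of Jag1, 380 ± 30.5 and 361 ± 62.1, with log2 fold changes of -0.11 (SE 0.11) and -0.07 (SE 0.10). Notch2, another receptor, averaged 2260 in CON and 2294 in PEA. Of 21 genes that process, transport or modify the receptors and ligands, 1 was called, the ubiquitin ligase Mib2, which acts on Notch ligands. Mib2 rose from 763 ± 72.9 to 922 ± 103, a log2 fold change of 0.28 (SE 0.08) with edgeR's adjusted p = 0.0317, and the groups overlapped. Its adjusted p lay between 0.0119 and 0.0751 over the alternatives, and 4 of 12 fits without 1 library kept the call: it was lost without CON replicates 1, 3, 5 or 6 or PEA replicates 2, 4, 5 or 6.

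In the RBPJ complex and its corepressors, 0 of 19 were called. Rbpj itself gave 1746 ± 182 normalized counts in CON and 1559 ± 76.3 in PEA, a log2 fold change of -0.16 (SE 0.06) with edgeR's adjusted p = 0.107, which became 0.0137 without CON replicate 2 and lay between 0.0137 and 0.213 over the alternatives. The corepressor Tle1 gave 554 ± 43.0 and 493 ± 40.6, at -0.17 (SE 0.07) with edgeR's adjusted p = 0.132.

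Of 11 other Notch targets and relatives of HES and HEY, 3 were called higher and 1 lower. Sox9, a transcription factor of progenitors and cartilage, ran from 972 to 1260 normalized counts in CON and from 1307 to 1400 in PEA, without overlap. Its log2 fold change was 0.27 (SE 0.06) with edgeR's adjusted p = 0.0078, and between 0.000624 and 0.0248 over the alternatives. The bHLH repressor Bhlhe41 ran from 1704 to 2013 in CON and from 1445 to 1693 in PEA, also without overlap, at -0.21 (SE 0.05) with edgeR's adjusted p = 0.0172 and between 0.00296 and 0.0431 over the alternatives. The zinc finger repressors Snai1 and Snai2 both rose. Snai1 went from 888 ± 71.4 to 1061 ± 86.5, at 0.26 (SE 0.07) with edgeR's adjusted p = 0.0183, and between 0.00572 and 0.0486 over the alternatives. Snai2 went from 708 ± 73.8 to 841 ± 57.0, at 0.25 (SE 0.07) with edgeR's adjusted p = 0.0285, and between 0.00967 and 0.0773 over the alternatives. The call of Snai2 was lost without CON replicates 3 or 6 or PEA replicates 5 or 6. The direct Notch target Nrarp averaged 14.7 in CON and 15.2 in PEA and was not called.

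Of 8 tested relatives and partners of the Id proteins, 1 was called higher and 1 lower. Tcf4, an E protein that Id proteins bind, fell from 4117 ± 280 to 3421 ± 226 normalized counts, a log2 fold change of -0.26 (SE 0.05) with edgeR's adjusted p = 0.0069 and between 0.000187 and 0.0206 over the alternatives. The other E proteins, Tcf3 and Tcf12, averaged 2034 and 2589 in CON and 2076 and 2382 in PEA, and were not called. The bHLH repressor Msc, musculin, ran from 39.1 to 71.9 in CON and from 73.4 to 84.5 in PEA, without overlap. Its log2 fold change was 0.62 (SE 0.16) with edgeR's adjusted p = 0.0204, and between 0.00444 and 0.0578 over the alternatives, the highest when libraries were thinned to the smallest. Of the myogenic partners, Myod1 averaged 1899 in CON and 1765 in PEA and Myog 12261 and 10714, and neither was called.

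Of 26 tested genes of BMP and SMAD signalling, which lies upstream of the Id genes, 2 were called higher and 1 lower. Hjv, a BMP co-receptor, fell from 2191 ± 320 to 1751 ± 157 normalized counts, at -0.32 (SE 0.09) with edgeR's adjusted p = 0.0249 and between 0.00396 and 0.0646 over the alternatives. Smurf2, a ubiquitin ligase that acts on SMAD proteins and receptors, rose from 977 ± 56.3 to 1117 ± 57.4, at 0.19 (SE 0.05) with edgeR's adjusted p = 0.0261 and between 0.0166 and 0.0660 over the alternatives. Fst, a secreted protein that binds activins and some BMPs, rose from 751 ± 106 to 941 ± 91.6, at 0.33 (SE 0.09) with edgeR's adjusted p = 0.0267 and between 0.00657 and 0.0638 over the alternatives. Each of these calls was lost in some fits without 1 library: Hjv without CON replicates 1 or 5 or PEA replicates 4 or 6, Smurf2 without CON replicate 6 or PEA replicates 2, 3 or 5, and Fst without CON replicate 6 or PEA replicates 3, 4, 5 or 6. Smad6 and Smad7, the inhibitory SMAD genes that BMP signalling also induces, averaged 122 and 467 in CON and 131 and 430 in PEA and were not called. Bmp4 averaged 752 in CON and 841 in PEA, and the BMP receptor Bmpr1a 2214 and 2149, and neither was called.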

How the data were processed

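Poly(A) RNA of 12 libraries (6 CON, 6 PEA) was read. The labels list 13 entries, since a first run and a top-up are listed for PEA replicate 2, and their shared values were counted as 1 library. Per the methods, the authors aligned reads to mm39 with STAR 4.4.1d (as listed) and quantified Ensembl genes in Partek Flow. They deposited estimated counts per gene (70.2% of those above 0 not whole) and a signal table of normalized counts, in which each library's estimated counts are scaled by its median-ratio factor. Both tables hold 16382 genes, of which 16343 matched a symbol. The annotation has 2240 protein-coding genes with identifiers above the last one, which were not analysed here.

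Estimated counts were rounded and tested in edgeR 4.0.16 (R 4.3.3): quasi-likelihood test, TMM factors 0.988 to 1.02, default filter, 13142 genes, Benjamini-Hochberg threshold 0.05. The SE is the size of the log2 fold change over the root of F. Log2 CPM used a prior count of 2. The fit was tested on simulated data of this size, where it recovered 87 of 100 genes changed by 0.5 and 100 of 100 changed by 1 on the log2 scale, with 1.58% false calls. The simulated libraries were independent and all genes had the same dispersion, the spread between libraries beyond counting error. These rates therefore do not carry over to genes that varied more or to duplicate wells. The alternatives were DESeq2 1.42.0, limma-voom (limma 3.58.1), median-of-ratios size factors, no filter, at least 10 counts in every library, thinning to the smallest library, limma on log2 of the deposited normalized counts plus 1, the replicate number as a block, and each library left out. Leaving out CON replicates 2 and 3 together, the correlations' alternatives and the exon length were added after the data had been seen.

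The 10 genes and the lists were chosen with earlier results of these data known. Named beside them are, from each pathway list, up to 4 called genes with the smallest p, or the first 2 where none was called, and the 5 genes most correlated with Id3 and with Hes1. Other genes named, with values only, were chosen for their function. Motifs and windows used GENCODE M39 and GRCm39. The errors given hold the spread between libraries and counting error, and no other source.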

Additional observations from a re-analysis of the deposited data

Results flagged for a closer look

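Notch1 in CON replicate 3 stood apart from its group, at 330 normalized counts against 485 in the next lowest CON library and 574 in the highest. The gap was 0.637 of the group's range, above Dixon's 95% critical value for 6 samples. It was the 1 value found among 48 gene and group combinations checked, and chance gives about 1 in 20 groups. Without this library the log2 fold change of Notch1 between PEA and CON was -0.19 in place of -0.10, and without CON replicate 1, the highest of the group, it was -0.04. The sum of the myotube markers was also lowest in CON replicate 3, at 153310 normalized counts. The part of either in the other was not tested.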

How the results depend on the processing

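Of 210 recomputed log2 fold changes of the 10 genes, 187 kept their direction and side of the threshold. The number of the 10 called higher was 1 (Notch3) in place of 0 under DESeq2, limma-voom, at least 10 counts in every library, thinning, limma on the deposited normalized counts, the replicate block, and with CON replicates 2 and 3 left out. Leaving out 1 library gave 0 to 1 called higher (1 without CON replicates 1, 2 or 4) and 2 to 4 called lower. Of the pathway genes, 6 were called lower under DESeq2 and 11 with CON replicates 2 and 3 left out, in place of 3. Leaving out 1 library gave 2 to 9 lower (9 without CON replicate 2 and 6 without CON replicate 3, against 2 without CON replicates 1 or 5 or PEA replicates 4 or 6) and 3 to 8 higher in place of 7 (3 without CON replicate 6 or PEA replicate 5, and 4 without PEA replicate 6). Signs turned for Jag1, at -0.013 with CON replicates 2 and 3 left out, for Hey1, which ran from -0.0088 (without PEA replicate 1) to 0.22 with 1 library left out, and for Jag2, from -0.14 to 0.0073 (without PEA replicate 4). None of these was called. The cause of these shifts was not tested.

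Libraries with the same replicate number did not deviate together (r from -0.08 to 0.06, 0 of 6 numbers over 0.1, and 0 of 6 correlating best with their own number), so no pairing by number was seen. A weak effect of the repeat would give the same values, so they do not show that the samples are unpaired. With the replicate block, 1 of the 10 was called higher and 4 lower, and 7 pathway genes were called higher and 4 lower. Depth limits Hey1, Heyl and Jag1 most, with at least 34, 39 and 68 estimated counts per library.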

Other observations

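The 10 genes also differed in how they followed the summed marker levels among libraries of the same treatment, on the log2 scale with group means removed (12 libraries, described without a test). Notch1 and Notch3 followed the summed myotube markers, with Pearson's r of 0.72 for each and Spearman's rho of 0.67 and 0.64. Without CON replicates 2 and 3, the libraries farthest from the median of that sum, r was 0.36 and 0.27. Hes1 and Hes6 had r of 0.56 and 0.63 (rho 0.53 and 0.52), and without those libraries r was 0.60 and 0.57. The Id genes had r of -0.54 to -0.41 with the myotube sum (rho -0.47 to -0.25), and without CON replicates 2 and 3 the values were 0.21 for Id1, 0.44 for Id2 and -0.08 for Id3, so that the relation rests on those libraries. Hey1 had r of 0.62 with the myotube sum (rho 0.66, and r of 0.40 without the same libraries) and of 0.70 with the summed cycling markers (rho 0.57, and r of 0.52 without them). With the cycling sum Id1 had r of -0.61, Id2 of -0.45 and Id3 of -0.34 (rho -0.45, -0.08 and -0.10), and without CON replicates 2 and 3 all 3 changed sign, to 0.29, 0.76 and 0.63. The sums and the genes were read in the same libraries, which came from duplicate wells in 3 repeats.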
